A study of Mus musculus with 58 samples.

Results

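The genes described here are 10 members of the interleukin-1 (IL-1) system of microglia. They were chosen by name as ligands, receptor parts and inflammasome components of this family. Earlier results of these data were known at that choice, so shares of members set beside those of all genes are descriptions only. Of the 47643 genes in the count tables, 10 carry these names. They are Il1a, Il1b and Il18 (ligands), Il1rn (the receptor antagonist), Il1rap (the shared receptor chain), Nlrp3 (a sensor), Pycard (an adaptor), Casp1 and Casp4 (inflammatory caspases) and Gsdmd (gasdermin D). Of the 58 samples of the study, 34 libraries of microglia were read and 24 of cortex were not analysed here.

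The libraries form 8 groups and 4 comparisons, which ask how tau and the NF-κB kinase IKKβ, encoded by Ikbkb, change microglia. Primary microglia of wild-type newborn mice received full-length tau fibrils at 2 µg/ml for 24 h or vehicle (4 libraries each). Adult microglia were sorted with magnetic beads from male PS19 mice, which carry a P301S human tau transgene, at 10.98 months (4 libraries) and from non-transgenic (NTG) males at 10.98 or 11.18 months (4 libraries). IkbkbCA cultures (5 libraries) were Cx3cr1 CreERT2/+ with a floxed-stop allele of constitutively active IKKβ in the Rosa26 locus, and IkbkbWT cultures (5 libraries) carried that allele without Cre. Ikbkb-/- cultures (4 libraries) were Cx3cr1 CreERT2/+ with floxed Ikbkb, and Ikbkb+/+ cultures (4 libraries) carried the floxed gene without Cre. Both Cre groups and their Cre-free controls were given 4-hydroxytamoxifen as mixed glial cultures, so the Cre allele, which replaces one copy of Cx3cr1, differs together with the state of Ikbkb. The methods call the in vitro work biologically replicated in general and name at least 4 mice per genotype for in vivo work. They call the libraries of each experiment replicates, without saying whether each came from its own mouse or pups. The p-values therefore measure the spread between libraries, which may in part be technical.

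IL-1α and IL-1β signal through the receptor IL1R1 and its partner IL1RAP, and the product of Il1rn occupies the receptor without signalling. Il1b and Il18 are made as inactive precursors. NLRP3, the adaptor ASC (Pycard) and caspase-1 assemble into the inflammasome, in which caspase-1 cuts both precursors and gasdermin D, whose fragment forms pores in the membrane. The mouse caspase encoded by Casp4, known as caspase-11, senses intracellular lipopolysaccharide and also cuts gasdermin D. In many macrophages NF-κB drives the transcription of Il1b and Nlrp3, the step often called priming. Transcript counts describe this step only, not cleavage or release.

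On GRCm38 the IL-1 genes lie on chromosome 2, with Il1a at chr2:129299610-129309972, Il1b at chr2:129364570-129371139 and Il1rn at chr2:24336853-24351494. The caspase genes are neighbours, Casp1 at chr9:5298517-5307265 and Casp4 at chr9:5308828-5336783, and Il18 is at chr9:50554827-50581840. The other members are Il1rap (chr16:26581704-26730117), Nlrp3 (chr11:59541568-59566956), Pycard (chr7:127989708-127993867) and Gsdmd (chr15:75862327-75867408), and all 10 are protein-coding.

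The 250 bases before the RefSeq start sites (GRCm38.p6) are shown for the members that carried a motif of NF-κB or AP-1, the transcription factors most often tied to this system, since IKKβ is what 2 of the 4 comparisons alter. Of the 10 members, 9 were matched in the promoter table, with 13 start sites. The κB consensus, searched on both strands, occurred in 7.25% of all 32851 promoter windows. Among the members it was found before Casp4, with 3 matches of which the first 2 overlap, and before 1 of the starts of Nlrp3. Capitals mark the matches, 5′ to 3′ on the strand of the gene, for Casp4 at chr9:5308599-5308848 (plus strand) and Nlrp3 at chr11:59541319-59541568 (plus strand).
Casp4: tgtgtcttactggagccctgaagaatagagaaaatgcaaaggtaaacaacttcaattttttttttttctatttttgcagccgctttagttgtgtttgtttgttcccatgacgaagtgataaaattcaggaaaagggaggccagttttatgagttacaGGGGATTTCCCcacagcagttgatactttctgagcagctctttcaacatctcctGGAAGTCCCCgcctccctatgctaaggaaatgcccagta
Nlrp3: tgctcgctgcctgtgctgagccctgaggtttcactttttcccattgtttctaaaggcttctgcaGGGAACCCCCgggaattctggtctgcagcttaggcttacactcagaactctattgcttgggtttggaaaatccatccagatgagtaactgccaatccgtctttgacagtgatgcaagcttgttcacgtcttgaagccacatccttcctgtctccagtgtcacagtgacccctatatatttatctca

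The AP-1 motif TGANTCA, searched on both strands, occurred in 6.75% of all windows and before 2 members, Il1a at chr2:129309973-129310222 (minus strand) and Il1rn at chr2:24336610-24336859 (plus strand).
Il1a: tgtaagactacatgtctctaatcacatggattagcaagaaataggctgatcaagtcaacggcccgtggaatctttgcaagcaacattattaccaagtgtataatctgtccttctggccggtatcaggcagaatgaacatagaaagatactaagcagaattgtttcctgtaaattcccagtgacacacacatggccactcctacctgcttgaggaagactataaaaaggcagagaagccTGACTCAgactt
Il1rn: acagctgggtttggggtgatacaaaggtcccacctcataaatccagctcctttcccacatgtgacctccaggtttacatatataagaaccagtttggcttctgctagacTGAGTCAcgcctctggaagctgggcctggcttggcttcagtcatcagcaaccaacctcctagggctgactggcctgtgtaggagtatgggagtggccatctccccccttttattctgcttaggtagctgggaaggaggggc
The interferon-stimulated element GAAANNGAAA, on both strands, occurred in 2.98% of all windows and in none of the 13 windows of the members. A match in these letters is a description and not a bound site, and the absence of one says only that the window lacks these letters.

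The reads were counted from 3′ tags, so that a count does not grow with gene length, and total counts were 1672052 to 8349128 per library. Levels are given as CPM, counts brought to a common library size with TMM factors, which set most genes of the libraries to a like level. Antisense genes overlap exons of 4 members, and whether the counting used strand is not given. Over all 34 libraries they held 50 counts at most (Gm14023, over Il1a), with 4 for Il1bos over Il1b, 44 for Gm45205 over Pycard and 0 for Gm20319 over Il1rap. The labels were checked with Ikbkb, which was 45.9 to 55.0 CPM in Ikbkb+/+ and 18.7 to 25.4 CPM in Ikbkb-/- libraries. In IkbkbCA it was 45.0 to 59.8 CPM against 41.2 to 58.6 CPM in IkbkbWT, and whether tags of the transgene are counted on this gene is not given, so that it does not check the label. Cx3cr1 did not overlap between the Cre and Cre-free groups of either experiment and was lower with Cre. The 12 microglia markers were tested in every comparison, so the labelled cell type had its transcripts, but the sex mix of cultures was uneven: Ddx3y, on the Y chromosome, was 156 to 178 CPM in Ikbkb-/- and 34.9 to 70.9 CPM in Ikbkb+/+. In IkbkbWT it was 145 to 173 CPM in libraries 1 to 3 and 1.16 and 2.08 CPM in libraries 4 and 5, against 48.9 to 85.8 CPM in IkbkbCA.

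**Figure D1:**
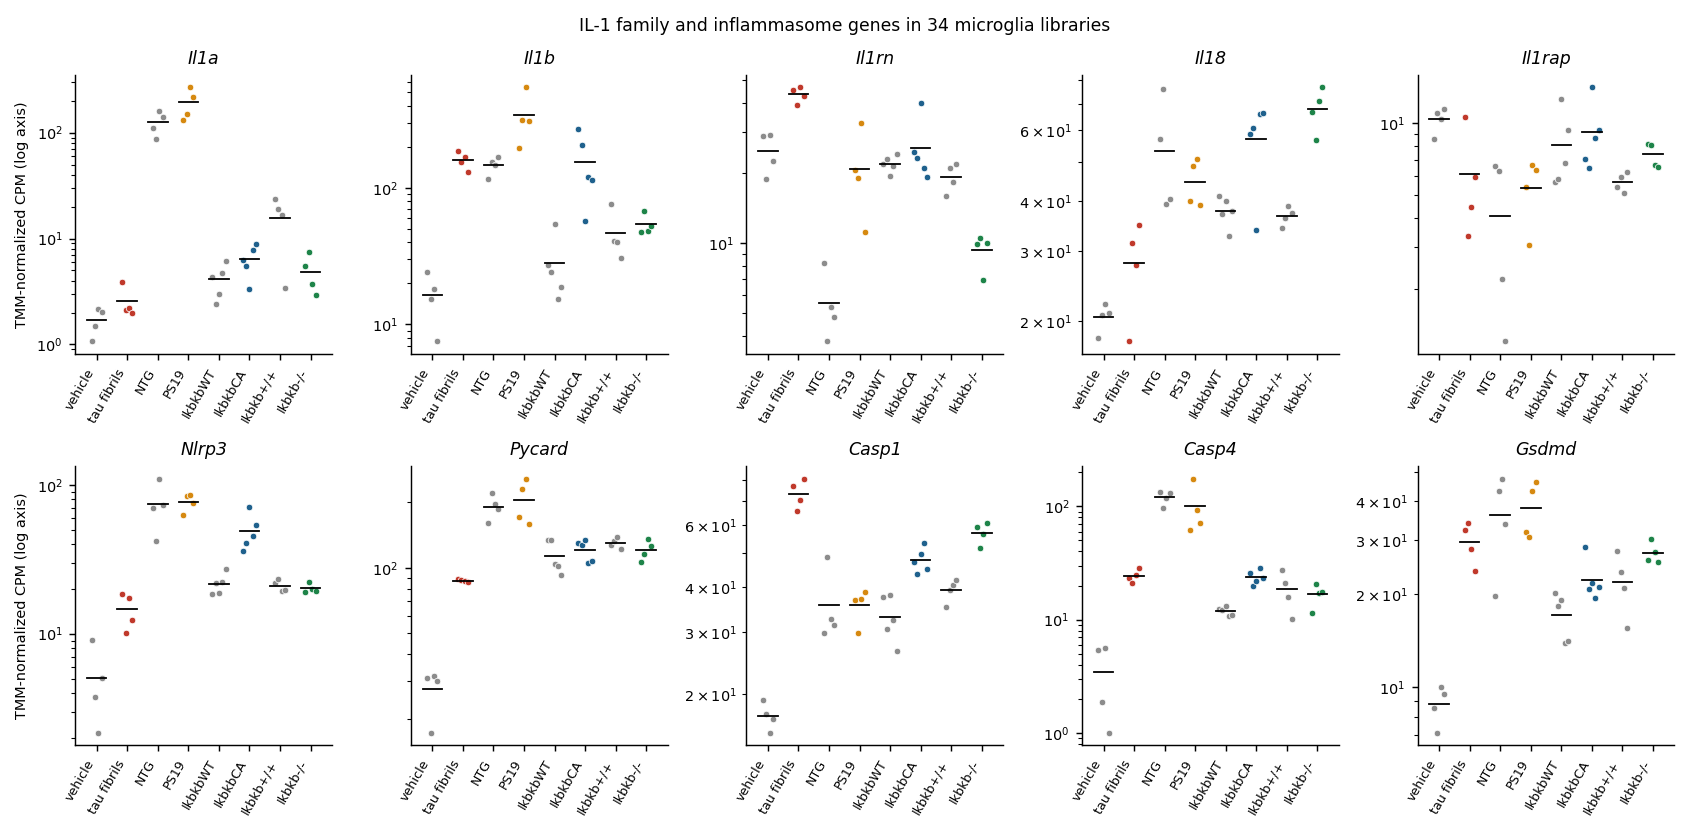
TMM-normalized CPM on log axes of each member (panels) in the 34 libraries, 1 point per library with the group mean as a bar. Il1a and Casp4 stood highest in NTG and PS19, and Il1b ranged from 7.52 CPM in a vehicle library to 546 CPM in a PS19 library.

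Tau fibrils raised 7 of the 9 members that could be tested. The ligand Il1b, the 2 caspases, Gsdmd, Pycard, Nlrp3 and the antagonist Il1rn were higher in every tau-stimulated library than in any vehicle library. No member was called lower, though Il1rap had a negative log2 fold change. Among all 10408 genes tested, 14.5% rose and 28.3% did not overlap between the groups in either direction. The median log2 fold change was 1.7 over the 9 members and -0.011 over all genes. Each gene was tested by quasi-likelihood in edgeR, and it was called where its false discovery rate, adjusted by Benjamini-Hochberg over all genes (edgeR FDR), was under 0.05.

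Il1b changed most. It measured 201.2, 167, 179.8 and 140.4 CPM with tau fibrils and 26.2, 16.7, 19.9 and 8.18 CPM with vehicle. Its lowest tau-stimulated library was far above the highest vehicle library, and the log2 fold change was 3.29 (SE 0.20, edgeR FDR = 3.73e-13). The other precursor cytokine was not called. Il18 was 19.2, 33.8, 29.8 and 37.4 CPM with tau fibrils and 19.8, 22.6, 24.1 and 22.9 CPM with vehicle. One tau-stimulated library lay below all vehicle libraries and the other 3 above them, and the test was not passed (log2 fold change 0.43, SE 0.22, edgeR FDR = 0.141). Without that library it was 0.60 (edgeR FDR = 0.0438).

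Il1a was too low to be tested. It had 4 to 7 counts in tau-stimulated and 2 to 8 counts in vehicle libraries, or 2.14 to 4.21 CPM and 1.17 to 2.37 CPM, and these ranges overlap. A fit without the filter on low counts gave 0.58 (SE 0.71, edgeR FDR = 0.616), so a change of Il1a was not detectable at this depth.

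The antagonist Il1rn rose as well. Its levels were 48.6, 41.9, 50.02 and 45.9 CPM with tau fibrils and 31.5, 20.5, 31.7 and 24.5 CPM with vehicle. The groups did not overlap (log2 fold change 0.81, SE 0.19, edgeR FDR = 0.00185). The receptor chain Il1rap had 11.4, 3.61, 4.76 and 6.41 CPM against 9.33, 12.0, 11.4 and 12.6 CPM with vehicle. Tau-stimulated library 1 lay inside the vehicle range and the other 3 below it, with a log2 fold change of -0.84 (SE 0.35, edgeR FDR = 0.0733). Leaving out that library gave -1.20 (edgeR FDR = 0.021).

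The sensor, the adaptor and the protease of the inflammasome all rose. Nlrp3 had 19.8, 10.8, 18.7 and 13.4 CPM with tau fibrils and 9.91, 4.07, 2.37 and 5.45 CPM with vehicle, a narrow gap between the groups (log2 fold change 1.59, SE 0.37, edgeR FDR = 0.00141). Pycard, the adaptor, was 92.4 to 95.5 CPM in the 4 tau-stimulated libraries and 33.8, 18.9, 34.5 and 32.7 CPM in the vehicle libraries (log2 fold change 1.69, SE 0.18, edgeR FDR = 3.11e-08). Casp1 was 82.9, 70.3, 75.4 and 87.0 CPM against 20.99, 19.1, 17.03 and 18.5 CPM, or 2.06 on the log2 scale (SE 0.17, edgeR FDR = 3.16e-10). All 3 genes separated the groups completely.

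The lipopolysaccharide sensor and the pore former were also higher. Casp4 had 25.2, 22.6, 26.6 and 30.4 CPM with tau fibrils and 5.83, 2.03, 6.15 and 1.09 CPM with vehicle, where its counts were 2 to 13 per library (log2 fold change 2.89, SE 0.35, edgeR FDR = 2.75e-07). Gsdmd had 34.8, 36.5, 30.2 and 25.6 CPM against 9.33, 7.72, 10.9 and 10.4 CPM (log2 fold change 1.76, SE 0.24, edgeR FDR = 1.76e-06). Neither gene overlapped between the groups.

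Of 26 genes of IL-1 family receptors and signalling, 12 were tested, of which 5 rose and 1 fell (50% called, against 29.9% of all genes), with a median log2 fold change of 0.31. Myd88, the adaptor of IL-1 and Toll-like receptors, rose by 1.94 (SE 0.19, edgeR FDR = 3.94e-09), Irak3, a kinase-like brake on this pathway, by 1.35 and the kinase Irak2 by 0.68. Tollip, which dampens signalling, fell by 0.65 (SE 0.20, edgeR FDR = 0.0129). Of 28 other inflammasome and pyroptosis genes, 17 were tested, 8 rose and 1 fell (52.9% called, median 0.66). The nucleic acid sensor Zbp1 changed most, from 2.12 ± 0.52 to 64.2 ± 14.5 CPM (SD, n = 4), followed by Ninj1, which ruptures the membrane of dying cells (1.19), and Naip2, a receptor for bacterial proteins (1.13). Reads of the near-identical Naip genes may be split among them, so their values are uncertain.

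Marker sums moved in the same comparison. The 12 microglia markers summed to 15100 to 17300 CPM with tau fibrils and 6610 to 8450 CPM with vehicle, with 7 called higher. The 8 markers of border-associated macrophages summed to 995 to 1180 CPM and 219 to 296 CPM, with 3 tested and 2 called higher. Most of that sum was Ms4a7, with means of 991 and 181 CPM. Pf4 was also called (100 and 67.15 CPM), and Mrc1 was not (18.1 and 14.04 CPM). The 7 astrocyte markers summed to 385 to 450 CPM with tau fibrils and 708 to 761 CPM with vehicle and the 7 neuron markers to 33.6 to 48.1 CPM and 78.2 to 88.4 CPM, with 4 of each list called lower. Granulocyte markers, of which 4 of 10 had no count, were at most 8.04 CPM in sum and T and NK cell markers at most 0.545 CPM. The part of these shifts in the members' values was not tested, and in bulk libraries fewer cells of a type and less RNA per cell cannot be told apart. Scaling to total counts shifted the median of all genes by -0.16, lowered the higher share among called genes from 48.5% to 31.9%, and left the 7 members called, between 0.66 (Il1rn) and 3.14 (Il1b), while Il1rap was then called lower as well (-0.99, edgeR FDR = 0.0324).

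**Figure D2:**
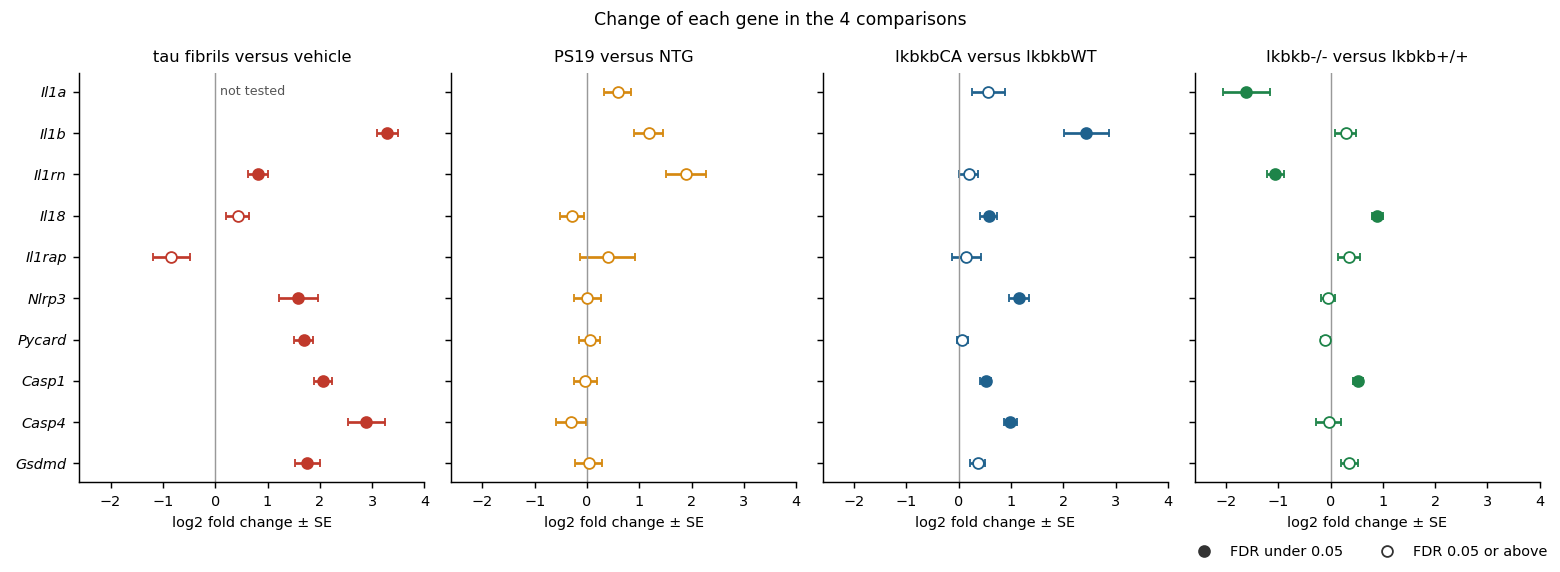
Log2 fold change ± SE of the 10 members (rows) in the 4 comparisons (panels) by edgeR, with filled points at FDR under 0.05. Tau fibrils had 7 filled points, all to the right of 0, PS19 had none, IkbkbCA 5 and Ikbkb-/- 4, of which 2 lay to the left.

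In microglia from PS19 mice no member of the 10 was called by edgeR (FDR under 0.05), where 0.0707% of all 11323 genes were. Of the members, 3 had an unadjusted p under 0.05, as had 977 of the 11323 genes tested. DESeq2 called 2 members, Il1b and Il1rn, and it also called more of all genes than edgeR (counts below). Il1b and Il1rn were also the only members whose groups did not overlap, against 5.77% of all genes. The median log2 fold change was 0.044 over the members and 0.0042 over all genes.

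Il1b had 181, 275, 483 and 274 CPM in the PS19 and 105, 143, 132 and 156 CPM in the NTG libraries. Every PS19 library was above every NTG library, with a log2 fold change of 1.18 (SE 0.27, edgeR FDR = 0.193). Il1rn had 18.8, 16.5, 28.8 and 9.87 CPM against 7.53, 3.47, 4.72 and 4.45 CPM, from 8 to 24 counts in the NTG libraries. The 4 PS19 values again lay above all 4 NTG values (log2 fold change 1.89, SE 0.38, edgeR FDR = 0.108). DESeq2 gave an FDR of 0.00709 for Il1b and 0.0019 for Il1rn, and edgeR without the filter on low counts 8.53e-05 and 0.000135, while limma-voom called neither. Without PS19 library 2, Il1rn was called (1.96, edgeR FDR = 0.0492).

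Il1a, plentiful in these adult cells, had 121, 132, 238 and 194 CPM in PS19 and 102, 80.2, 144 and 128 CPM in NTG libraries. The groups overlapped, and the log2 fold change was 0.59 (SE 0.26, edgeR FDR = 0.552). The inflammasome genes differed less. Nlrp3 ranged from 57.4 to 75.0 CPM in PS19 and from 38.2 to 98.2 CPM in NTG, Pycard from 140.4 to 228 and from 147 to 204 CPM, Casp1 from 25.8 to 34.5 and from 27.1 to 44.7 CPM, and Gsdmd from 26.6 to 41.0 and from 18.1 to 42.3 CPM. Their 4 log2 fold changes lay between -0.03 and 0.06, with standard errors of 0.20 to 0.26. Il18, Casp4 and Il1rap had -0.29, -0.30 and 0.40, with standard errors of 0.24, 0.29 and 0.52, and their groups overlapped as well.

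Neither pathway list had a called gene, among 18 tested genes of receptors and signalling and 19 of the other inflammasome genes. Libraries of this comparison were uneven. The 10 granulocyte markers, among them S100a8, which granulocytes make in quantity, summed to 398, 1590, 2430 and 911 CPM in PS19 and to 1520 to 2100 CPM in NTG, and with their log2 sum as a covariate, chosen after the data were seen, Il1b was 1.41 (edgeR FDR = 0.0481). All 10 of these markers had counts. Astrocyte markers were 791 to 1810 CPM in PS19 and 636 to 962 CPM in NTG. Xist, made from the inactive X chromosome of female cells, ranged from 1.67 to 161 CPM in PS19 and from 25.6 to 29.1 CPM in NTG libraries, all labelled male. Ddx3y was 92.3 to 206 CPM in PS19 and 131 to 179 CPM in NTG. PS19 library 1, the highest for Xist, also held Ddx3y at 112 CPM.

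In IkbkbCA cultures 5 of 10 members were called higher than in IkbkbWT and none lower. The Cre allele differs together with active IKKβ in this comparison. Il1b, Nlrp3, Casp4, Casp1 and Il18 were called higher, where 7.31% of all 11697 genes were called higher and 7.16% lower, and the first 4 did not overlap between the groups, against 12.7% of all genes. The median log2 fold change was 0.54 over the members and -0.047 over all genes. With total-count scaling 37.6% of the called genes were higher in place of 50.5%, and 4 members were called, without Il18.

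The libraries fell into 3 sets by their marker transcripts, and each set held both genotypes. Oligodendrocyte markers summed to 5000 CPM in IkbkbWT library 3 and 1770 CPM in IkbkbCA library 3, against 263 to 674 CPM in the other 8. Neuron markers summed to 51.8 to 71.7 CPM in libraries 4 and 5 of both genotypes and to 4.47 to 7.17 CPM in the others. What these sets are is not given in the sources used here. Within each genotype, libraries 1 and 2, and libraries 4 and 5, were more alike than libraries of different sets. The p-values of this comparison may therefore rest on fewer independent units than libraries.

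Il1b was 270, 208, 56.6, 123 and 116 CPM in IkbkbCA and 27.3, 24.4, 56.0, 16.1 and 19.7 CPM in IkbkbWT libraries 1 to 5. In the other 2 sets the IkbkbCA libraries were all at least 116 CPM and the IkbkbWT libraries at most 27.3 CPM, while the 2 libraries rich in oligodendrocyte markers were alike. Over all 10 libraries the log2 fold change was 2.44 (SE 0.43, edgeR FDR = 0.00262), without the 2 libraries 3.06 (edgeR FDR = 0.000107), and with the sets as a covariate 2.41 (edgeR FDR = 0.000297). The 2 alternatives were chosen after the data were seen.

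Il18 showed the same exception. It measured 59.1, 61.0, 33.8, 67.3 and 67.6 CPM in IkbkbCA and 41.1, 37.6, 41.4, 34.3 and 39.5 CPM in IkbkbWT. All IkbkbCA libraries other than library 3 were above the controls, and library 3 was below them. Its log2 fold change was 0.57 (SE 0.16, edgeR FDR = 0.0349). The call was lost when any 1 of 8 libraries was left out (all but IkbkbWT library 1 and IkbkbCA library 3), with an edgeR FDR of 0.0501 to 0.0879, and also with total-count scaling (edgeR FDR = 0.0597), with Ddx3y as a covariate (edgeR FDR = 0.0641) and by limma-voom (FDR = 0.0633). The value was 0.74 (edgeR FDR = 0.000226) without IkbkbCA library 3. Il1a, the ligand without a precursor step in the inflammasome, had 3.31 to 9.01 CPM in IkbkbCA and 2.44 to 6.46 CPM in IkbkbWT and was not called (0.56, SE 0.32, edgeR FDR = 0.284).

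Nlrp3 was higher in all 3 sets. It had 36.4, 40.5, 71.0, 45.8 and 54.6 CPM in IkbkbCA and 18.5, 22.2, 19.2, 23.2 and 28.3 CPM in IkbkbWT. Within each set the IkbkbCA libraries were higher, library 3 included, and the log2 fold change was 1.15 (SE 0.18, edgeR FDR = 0.00141). Casp4 had 26.2, 19.8, 21.7, 29.2 and 23.8 CPM against 12.4, 12.4, 13.5, 11.3 and 11.5 CPM, and Casp1 had 47.6, 43.7, 49.5, 54.3 and 45.8 CPM against 37.7, 30.9, 39.2, 33.9 and 27.7 CPM. Both caspases were higher in every IkbkbCA library than in any IkbkbWT library. The log2 fold change was 0.99 for Casp4 (SE 0.13, edgeR FDR = 0.000341) and 0.51 for Casp1 (SE 0.11, edgeR FDR = 0.00751).

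The other components were not called. Gsdmd had 19.8 to 28.5 CPM in IkbkbCA and 14.6 to 20.2 CPM in IkbkbWT (log2 fold change 0.36, SE 0.14, edgeR FDR = 0.121), and with the 3 sets as a covariate it was called (0.36, edgeR FDR = 0.0382). Pycard had 107 to 134 CPM and 96.4 to 136 CPM (0.07, SE 0.11), and Il1rap 6.52 to 14.2 CPM and 5.69 to 13.1 CPM, highest in library 3 of both genotypes (0.15, SE 0.28). Il1rn had 24.8, 23.2, 39.9, 21.4 and 19.5 CPM against 20.0 to 25.3 CPM, with library 3 alone above the controls (0.19, SE 0.18, edgeR FDR = 0.559). Without the 2 libraries rich in oligodendrocyte markers it was -0.04.

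**Figure D3:**
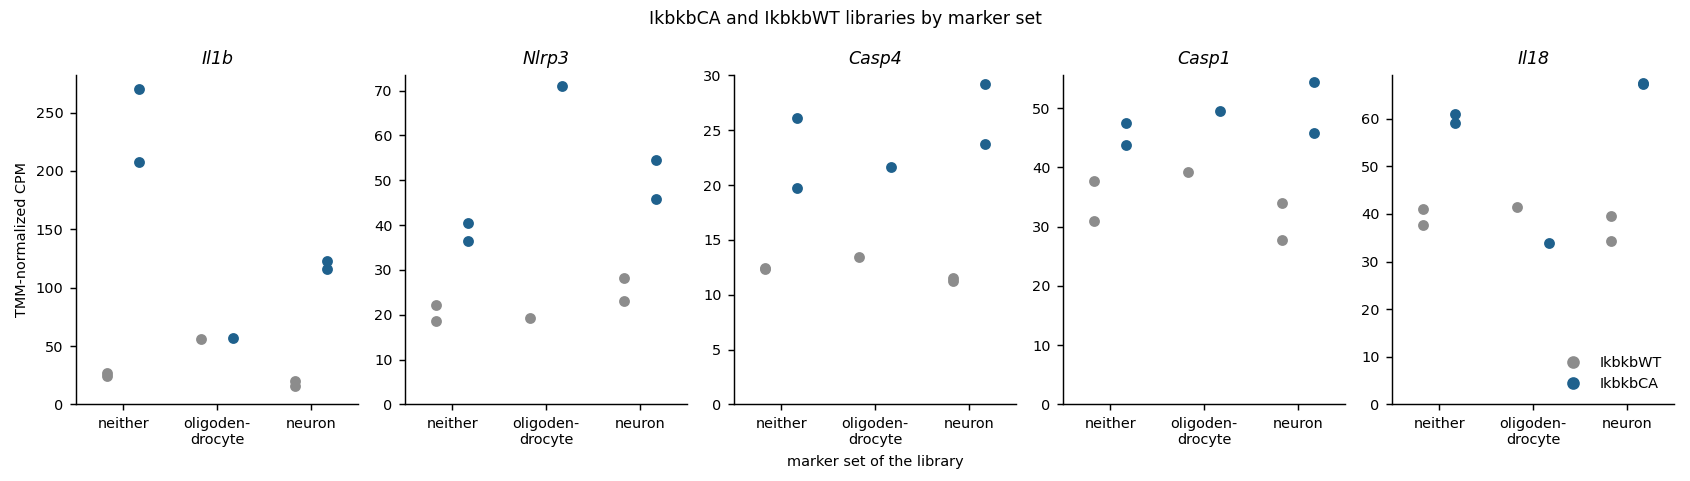
TMM-normalized CPM of the 5 called members in IkbkbCA (blue) and IkbkbWT (grey) libraries, split by marker set: oligodendrocyte (library 3 of each), neuron (libraries 4 and 5) or neither (libraries 1 and 2). Il1b was 56.6 and 56.0 CPM in the oligodendrocyte set, where Nlrp3 was 71.0 and 19.2 CPM.

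Of the list of receptors and signalling, 14 genes were tested, 4 rose and 2 fell (42.9% called, against 14.5% of all genes, median 0.00092). Il18bp, which neutralizes IL-18, rose by 1.40 (SE 0.27, edgeR FDR = 0.00438), Irak2 by 0.75 and Myd88 by 0.74, whereas the ubiquitin ligase Traf6 fell by 0.52 and the kinase Irak1 by 0.39. Of the other inflammasome genes, 20 were tested, 3 rose and 2 fell (25% called, median 0.023). Zbp1 rose by 2.61 (SE 0.37, edgeR FDR = 0.000578), Naip2 by 0.65 and Brcc3, a deubiquitinase of NLRP3, by 0.36, while Dpp9, a protease that restrains NLRP1, fell by 0.49. Granulocyte markers summed to 17 to 85.7 CPM in IkbkbCA, highest in library 3, and to 6.93 to 12.4 CPM in IkbkbWT, and 2 of the 10 markers had no count. The 12 microglia markers summed to 18500 to 28800 CPM in IkbkbCA and 15800 to 21600 CPM in IkbkbWT, with 4 called higher and 2 lower, and of the markers of border-associated macrophages 5 were called lower and 1 higher. Their part in the members' values was not tested.

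Between Ikbkb-/- and Ikbkb+/+ cultures the calls went in both directions. Il18 and Casp1 were higher in Ikbkb-/- than in Ikbkb+/+ microglia, and Il1rn and Il1a lower, so 4 of 10 members were called, where 14.6% of all 11242 genes were (7.64% higher and 6.96% lower). The groups of 4 members did not overlap (Il18, Casp1, Il1rn and Il1rap), as for 18.1% of all genes. The median log2 fold change was 0.13 over the members and 0.00017 over all genes.

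Il18 was 68.9, 58.0, 72.2 and 77.8 CPM in Ikbkb-/- and 35.4, 37.3, 39.0 and 37.2 CPM in Ikbkb+/+, with a wide gap (log2 fold change 0.89, SE 0.10, edgeR FDR = 6.85e-06). Casp1 was 61.0, 52.7, 57.4 and 61.2 CPM against 36.5, 40.2, 41.0 and 41.9 CPM (0.53, SE 0.10, edgeR FDR = 0.000821). Both genes were also called higher with active IKKβ, so both passed the test in the same direction on gain and on loss of the kinase. The Cre allele and the loss of one Cx3cr1 copy lie on the same side of both comparisons and cannot be told apart from the change of Ikbkb.

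Il1rn was 10.2, 10.8, 7.03 and 10.1 CPM in Ikbkb-/- and 16.4, 21.5, 18.4 and 21.7 CPM in Ikbkb+/+. Every library without Ikbkb was below every control (log2 fold change -1.05, SE 0.17, edgeR FDR = 0.000252).

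Il1a was 5.65, 7.59, 3.75 and 2.95 CPM in Ikbkb-/- and 24.2, 19.4, 16.7 and 3.44 CPM in Ikbkb+/+. The fourth control lay inside the range of the Ikbkb-/- libraries and the other 3 well above it, and the log2 fold change was -1.62 (SE 0.45, edgeR FDR = 0.0209). The granulocyte markers moved with it. They summed to 426, 97.7, 39.7 and 8.20 CPM in Ikbkb+/+ libraries 1 to 4, the same order as Il1a, and to 8.20 to 13.3 CPM in Ikbkb-/-, with 1 of 10 markers without a count and 2 tested and called lower. Astrocyte markers had the same order among the controls (213, 156, 99.4 and 53.7 CPM) and were 38.4 to 74.8 CPM in Ikbkb-/-. With the log2 sum of the granulocyte markers as a covariate, chosen after the data were seen, Il1a had -0.33 (edgeR FDR = 0.694). Among the controls only library 4 lay in the marker range of the Ikbkb-/- libraries, so this fit cannot tell the markers from the genotype. The call was lost when any 1 of 5 libraries was left out (Ikbkb+/+ 1, 2 or 3 or Ikbkb-/- 3 or 4, with an edgeR FDR of 0.0503 to 0.0876), by DESeq2 (FDR = 0.0554) and by limma-voom (FDR = 0.221), and without Ikbkb+/+ library 4 it was -2.02 (edgeR FDR = 8.36e-06).

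Il1b was 49.1, 69.6, 49.5 and 53.1 CPM in Ikbkb-/- and 79.1, 41.7, 40.3 and 30.6 CPM in Ikbkb+/+. The first control, the library richest in granulocyte markers, was above all others, and the remaining 3 controls were below all Ikbkb-/- libraries. The log2 fold change was 0.29 (SE 0.21, edgeR FDR = 0.412), without that control 0.58 (edgeR FDR = 0.0101) and with the granulocyte covariate 0.94 (edgeR FDR = 0.000346). Casp4 followed the same order among controls, with 28.7, 21.5, 16.04 and 10.2 CPM against 11.9, 21.1, 17.3 and 17.7 CPM, and its log2 fold change turned from -0.04 (SE 0.24, edgeR FDR = 0.942) to 0.69 (edgeR FDR = 0.0385) with that covariate. Gsdmd, with 28.7, 24.2, 21.2 and 15.5 CPM in the controls and 25.8 to 30.8 CPM in Ikbkb-/-, went from 0.36 (edgeR FDR = 0.155) to 0.77 (edgeR FDR = 0.00266). As for Il1a, the fits with this covariate cannot tell the granulocyte markers from the genotype. The order among the controls was not particular to these markers, since Cx3cr1 fell in it as well (2917, 2582, 2218 and 1818 CPM).

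**Figure D4:**
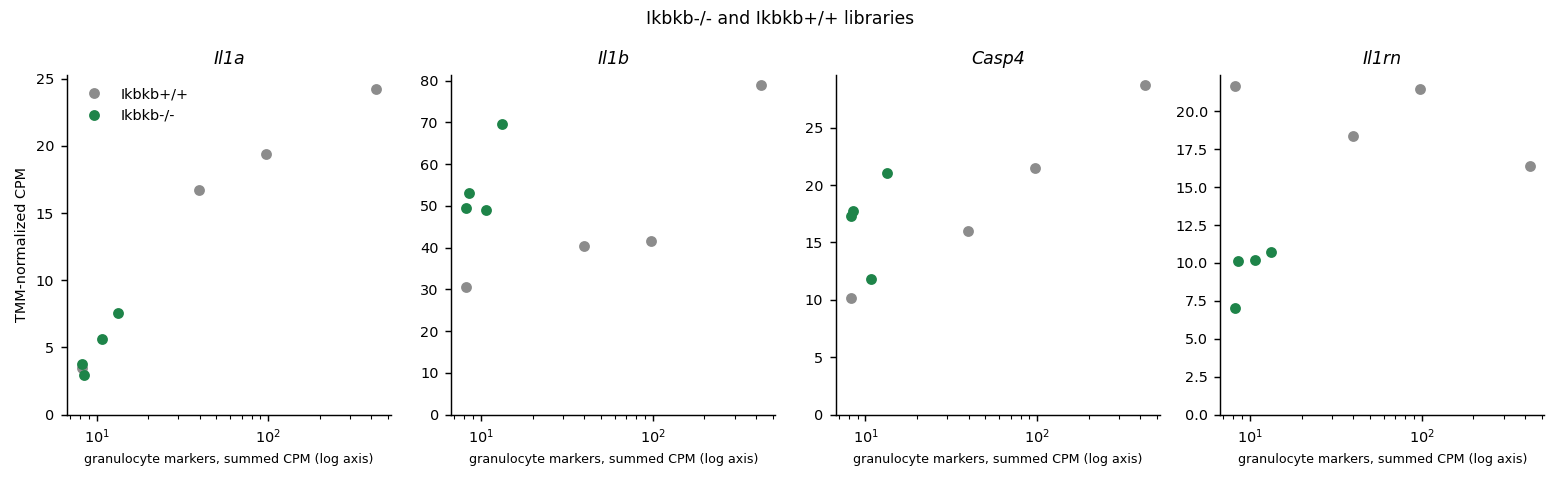
TMM-normalized CPM of Il1a, Il1b, Casp4 and Il1rn (panels) in the Ikbkb+/+ (grey) and Ikbkb-/- (green) libraries against the summed CPM of 10 granulocyte markers on a log axis. The 4 controls spread from 8.20 to 426 CPM of these markers and the 4 Ikbkb-/- libraries from 8.20 to 13.3 CPM, and Il1rn was lower in every Ikbkb-/- library than in any control, with control 4 the only one inside their marker range.

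Nlrp3 was 19.5 to 22.6 CPM in Ikbkb-/- and 19.5 to 23.8 CPM in Ikbkb+/+ (log2 fold change -0.04, SE 0.13), and Pycard 110.1 to 138 CPM and 122 to 140.0 CPM (-0.10, SE 0.09). Il1rap was 6.64 to 8.47 CPM and 5.13 to 6.22 CPM, without overlap, and was not called (0.36, SE 0.21, edgeR FDR = 0.289). Ddx3y, used for the sex mix, did not overlap between Ikbkb-/- (156 to 178 CPM) and Ikbkb+/+ (34.9 to 70.9 CPM). Among the controls it fell in the same order as the granulocyte markers, Il1a and Casp4. A fit with Ddx3y as a covariate therefore cannot tell the sex mix from the genotype or from these markers. In that fit only 2 members were called, Il1a (-4.42, edgeR FDR = 0.00746) and Casp4 (-1.96, edgeR FDR = 0.0376), and 315 of all genes in place of 1641. Il18 was then 1.15 (edgeR FDR = 0.068), Casp1 0.80 (edgeR FDR = 0.181) and Il1rn -0.89 (edgeR FDR = 0.403).

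Among the receptor and signalling genes 14 were tested and 3 rose (21.4% called, against 14.6% of all genes, median 0.0091), namely Il18bp by 1.51 (SE 0.25, edgeR FDR = 0.000408), Myd88 by 0.44 and Irak2 by 0.35, and none of the 14 fell. Of 20 other inflammasome genes 1 was called (5%, median 0.02). It was Zbp1, which went from 10.3 ± 1.01 to 125 ± 14.2 CPM (SD, n = 4). Oligodendrocyte markers were 457 to 533 CPM in Ikbkb-/- and 228 to 339 CPM in Ikbkb+/+, and markers of border-associated macrophages 967 to 1410 and 1990 to 2270 CPM. Their part in these values was not tested.

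Effects were then compared directly by an interaction term. In the fits with tau fibrils, Il1a, too low to be tested in that experiment, passed the filter through the other groups. Between the gain and the loss of IKKβ, 3 of 10 members differed, where 3.12% of all 12352 genes did. The IkbkbCA effect exceeded the Ikbkb-/- effect by 2.204 for Il1b (SE 0.56, edgeR FDR = 0.0357), by 1.26 for Il1rn (SE 0.26, edgeR FDR = 0.00957) and by 1.22 for Nlrp3 (SE 0.24, edgeR FDR = 0.00649). By limma-voom the call of Il1b was lost (2.04, FDR = 0.0706). Il1a (2.23, edgeR FDR = 0.0588) and Casp4 (1.09, edgeR FDR = 0.0595) missed the threshold, and Casp1 had a difference of -0.0044 (SE 0.15, edgeR FDR = 0.995).

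Between tau fibrils and active IKKβ, 4 of 10 members differed, against 9.42% of 12841 genes, and all 4 belong to the inflammasome machinery. The tau effect was larger by 1.54 for Pycard (SE 0.22, edgeR FDR = 0.000116), 1.47 for Casp1 (SE 0.17, edgeR FDR = 1.31e-05), 1.83 for Casp4 (SE 0.38, edgeR FDR = 0.00377) and 1.32 for Gsdmd (SE 0.25, edgeR FDR = 0.00173). For Il1b and Nlrp3 the differences were 0.77 (SE 0.56, edgeR FDR = 0.442) and 0.38 (SE 0.40, edgeR FDR = 0.605), which does not show that they were alike. On a common TMM scale, Pycard, Casp1, Casp4 and Gsdmd had means of 27.5, 17.4, 3.46 and 8.79 CPM with vehicle. In IkbkbWT they had 113, 33.0, 11.9 and 17.1 CPM. With tau fibrils they had 87.2, 73.4, 24.4 and 29.6 CPM, and in IkbkbCA 121, 47.7, 23.9 and 22.3 CPM. The experiments were prepared separately, so starting level and preparation cannot be told apart from the stimulus.

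Between tau fibrils in culture and PS19 in the adult brain, 6 of 10 members differed, against 8.07% of 11852 genes. The tau effect exceeded the PS19 effect by 2.01 for Il1b (SE 0.39, edgeR FDR = 0.00146), 1.503 for Nlrp3 (SE 0.44, edgeR FDR = 0.0374), 1.53 for Pycard, 2.01 for Casp1, 3.10 for Casp4 and 1.64 for Gsdmd, the last 4 with an edgeR FDR of at most 0.00402. The call of Nlrp3 was lost with total-count scaling (1.41, edgeR FDR = 0.0507) and by limma-voom (1.56, FDR = 0.0865). Il1rn had the opposite sign and was not called (-1.19, SE 0.41, edgeR FDR = 0.0831). Age, culture and isolation differ between these experiments and cannot be told apart from the stimulus.

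On 1 TMM scale for all 34 libraries, the levels of a member can be ordered across the groups, as a description without a test, since the experiments were prepared separately. Il1a was highest in PS19 (193 ± 62.7 CPM, SD, n = 4) and NTG (125 ± 32.4), which overlapped, and then fell to 15.6 ± 8.56 in Ikbkb+/+ and at most 6.35 in the other groups, down to 1.68 ± 0.50 with vehicle, a 114-fold range. Il1b led in PS19 (342 ± 146), followed by tau fibrils (160 ± 23.5), IkbkbCA (153 ± 83.7, n = 5) and NTG (147 ± 22.9), which overlapped one another. It was lowest with vehicle (16.3 ± 6.88), where it overlapped IkbkbWT (27.9 ± 15.4, n = 5).

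The antagonist had another order. Il1rn was highest with tau fibrils (43.4 ± 3.30) and lowest in NTG (5.54 ± 1.91), with Ikbkb-/- (9.34 ± 1.64) next to it and overlapping it. Il18 was highest in Ikbkb-/- (67.9 ± 8.44) and lowest with vehicle (20.5 ± 1.66), and every neighbouring pair in its order overlapped. Nlrp3 was highest in PS19 (76.4 ± 10.3) and NTG (73.9 ± 28.1), stood apart in IkbkbCA (49.2 ± 13.8) from IkbkbWT (21.6 ± 3.46) and was lowest with vehicle (5.00 ± 2.96). Casp1 alone of the inflammasome genes peaked with tau fibrils (73.4 ± 6.88), which did not overlap Ikbkb-/- (57.0 ± 3.87). Casp4 was 120.0 ± 17.3 in NTG and 101 ± 52.1 in PS19, far above tau fibrils (24.4 ± 3.06). Pycard and Gsdmd were also highest in PS19 and lowest with vehicle, and Il1rap kept between 4.08 ± 2.77 (NTG) and 10.4 ± 1.30 (vehicle).

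The ratio of 2 counts within a library does not depend on scaling. Il1rn over Il1b was 1.2 to 3 with vehicle and 0.242 to 0.327 with tau fibrils, without overlap. In the adult cells it was lowest, 0.0361 to 0.104 in PS19 and 0.0243 to 0.0714 in NTG, and these overlapped. It was 0.0919 to 0.705 in IkbkbCA and 0.357 to 1.40 in IkbkbWT, where library 3 of IkbkbCA was the highest of its group and library 3 of IkbkbWT the lowest of its own. In Ikbkb-/- it was 0.142 to 0.207 and in Ikbkb+/+ 0.208 to 0.71, so the ranges met without overlapping. Il18 over Il1b was 0.0955 to 0.266 with tau fibrils and 0.756 to 2.80 with vehicle, and 0.219 to 0.597 in IkbkbCA and 0.739 to 2.13 in IkbkbWT.

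**Figure D5:**
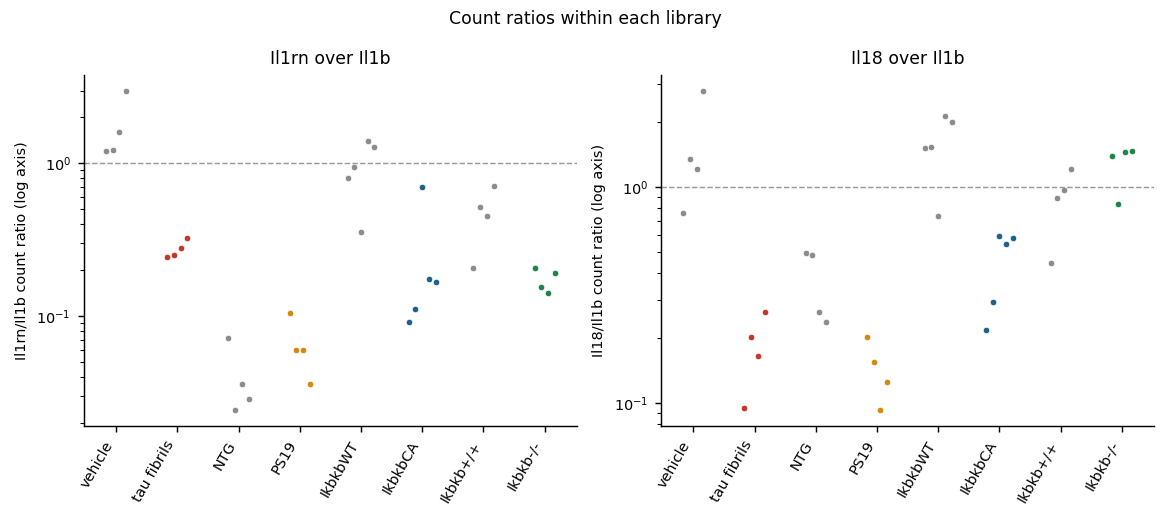
Ratio of counts of Il1rn to Il1b (left) and of Il18 to Il1b (right) within each library on log axes, 1 point per library in the 8 groups, with a dashed line at 1. The vehicle libraries lie at 1.2 to 3 for Il1rn over Il1b and the tau fibril libraries at 0.242 to 0.327.

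Likeness of pattern was measured by Pearson's r of log2 CPM over the 34 libraries after each experiment's mean was subtracted, among 13721 other genes. The libraries share scaling and marker shifts, so r is a description. Casp1 was most like Ms4a6b (0.947), B2m (0.938) and Psmb8 (0.935), Il1b like Cxcl16 (0.914), Il2rg (0.914) and Ccl5 (0.911), Pycard like Arhgdib (0.91), Acsl5 (0.903) and Adgre1 (0.886), and Casp4 like Ptprc (0.903), Lacc1 (0.889) and Il10ra (0.887). Gsdmd was most like Hmox2 (0.895), Tgfbi (0.885) and Acsl5 (0.874), and Nlrp3 like Nfkb2 (0.849), Pilra (0.837) and N4bp1 (0.834). The nearest genes of Il18 were Parp11 (0.835), Ypel5 (0.809) and Ifit2 (0.793), of Il1rn Nrp2 (0.801), Clec7a (0.797) and Pld3 (0.751), and of Il1rap Gpm6b (0.761), Pacsin3 (0.727) and Lrp4 (0.706). Among the members, Casp1, Pycard and Gsdmd had r of 0.816 to 0.853 with one another, while Il1rn had at most 0.413 with any other.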

How the data were processed

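The authors made QuantSeq 3′ mRNA-Seq libraries, ran the Lexogen pipeline of the BlueBee platform on GRCm38 and deposited 1 table of unnormalized read counts per library. The submitters' processing notes list STAR and RSEM, while the tables hold whole numbers with 5 closing lines of reads not given to a gene, which were left out. Reads that fell outside genes made up 12.4% to 38.3% per library. Symbols came from GENCODE M21 (47224 of 47643 genes).

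Each comparison used its own groups only, in R 4.3.3 with edgeR 4.0.16 (filterByExpr at a minimum count of 10, TMM, quasi-likelihood test, Benjamini-Hochberg adjustment over all genes). The SE is the size of the log2 fold change over the square root of F. Differences between effects were interaction contrasts in 1 fit. DESeq2 1.42.0 and limma 3.58.1 were alternatives, and the procedure was tested on simulated data. All 56 pairs of libraries within groups differed by more than sampling noise (chi-square per degree of freedom of at least 1.93). In IkbkbWT and IkbkbCA it was 3.08 and 3.25 between libraries 1 and 2, and 4.46 and 4.89 between libraries 4 and 5. Between libraries of different marker sets of these groups it was 11 to 42. The main fit counted all libraries of a group as separate. A floor of 3 counts equals 0.359 to 1.79 CPM per library and covers counting error only.

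The members, the gene lists and the tests were chosen with earlier results of these data known. Named genes are the 10 members, Ikbkb, Il1bos, up to 3 called genes in each direction per pathway list and comparison, the 3 nearest patterns of each member tested in all comparisons, and markers that move with a result. One gene of the pathway lists that this rule names is counted but not reported here. Other normalizations, filters and tools, each library left out, age, Ddx3y and 1 fit of 18 libraries were alternatives, and marker sets and granulocyte markers were added after seeing the data.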

Additional observations from a re-analysis of the deposited data

Results flagged for a closer look

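In 8 of 80 combinations of member and group, 1 library stood far from the rest. The combinations share libraries, so they are not independent. Library 3 of IkbkbCA was high for Il1rn (39.9 CPM, next 24.8) and low for Il18 (33.8 CPM, next 59.1), and library 3 of IkbkbWT was high for Il1b (56.0 CPM, next 27.3). These 2 libraries are those rich in oligodendrocyte markers. The others were Il1a in tau fibril library 1 (4.21 CPM, next 2.38), Il1rn in Ikbkb-/- library 3 (7.03 CPM, next 10.1), Pycard in vehicle library 2 (18.9 CPM, next 32.7), Casp1 in NTG library 2 (44.7 CPM, next 29.1) and Gsdmd in IkbkbCA library 1 (28.5 CPM, next 21.7).

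Effects that differed between experiments by the interaction test (edgeR FDR under 0.05) were those of Il1b (2.204), Il1rn (1.26) and Nlrp3 (1.22) between IkbkbCA and Ikbkb-/-, of Pycard (1.54), Casp1 (1.47), Casp4 (1.83) and Gsdmd (1.32) between tau fibrils and IkbkbCA, and of Il1b (2.01), Nlrp3 (1.503), Pycard (1.53), Casp1 (2.01), Casp4 (3.10) and Gsdmd (1.64) between tau fibrils and PS19, each as the first log2 fold change minus the second.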

How the results depend on the processing

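The 7 members called with tau fibrils and the calls of Il1b, Nlrp3, Casp1 and Casp4 in IkbkbCA held under every alternative run, and those of Il18, Casp1 and Il1rn in Ikbkb-/- under all but the Ddx3y covariate. In PS19 the count of called members went from 0 to 2 by DESeq2 and to 2 without a filter on low counts, to 1 with granulocyte markers as a covariate, and from 0 to 1 over the fits that left out 1 library. The Ddx3y covariate gave 2 in place of 4 in Ikbkb-/-. The difference between IkbkbCA and Ikbkb-/- effects had 5 in place of 3 by DESeq2 and 5 without a filter, while limma-voom lost Il1b (FDR = 0.0706). The difference of Nlrp3 between tau fibrils and PS19 was lost with total-count scaling and by limma-voom. Over left-out libraries the counts were 7 to 9 with tau fibrils, 4 to 5 in IkbkbCA and 3 to 4 in Ikbkb-/-. The cause of these changes was not tested.

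Among log2 fold changes that were not called, several changed sign. In PS19, Casp1 was 0.00424 with total-count scaling and 0.0119 without a filter, and with age as a covariate Il18 was 0.139, Nlrp3 -0.299, Casp1 0.131 and Gsdmd -0.129. All PS19 mice had the same age, so the age term rests on the NTG libraries alone. In IkbkbCA, Il1rn was -0.0361 without the libraries rich in oligodendrocyte markers. In Ikbkb-/-, Casp4 was 0.141 by limma-voom, Il1b -1.39 and Gsdmd -0.817 with Ddx3y, and Nlrp3 0.0851 and Casp4 0.688 (then called) with granulocyte markers. In the difference between IkbkbCA and Ikbkb-/- effects, Gsdmd was -0.0083 with total-count scaling and -0.0354 by limma-voom, and Casp1 was 0.0167 when no gene was filtered, 0.0231 by DESeq2 and 0.0311 by limma-voom. With 1 library left out, the range in PS19 was -0.169 to 0.263 for Nlrp3, -0.0745 to 0.161 for Pycard, -0.0868 to 0.182 for Casp1 and -0.142 to 0.187 for Gsdmd, in IkbkbCA -0.0341 to 0.364 for Il1rap, and in Ikbkb-/- -0.1 to 0.00831 for Nlrp3 and -0.278 to 0.179 for Casp4.

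Counts of all called genes moved more. PS19 had 8 genes, 103 by DESeq2, 166 without a filter, 4 by limma-voom, 0 with age and 54 without PS19 library 2. Ikbkb-/- had 1641, against 315 with Ddx3y, 1037 with granulocyte markers and 875 in 1 fit of 18 libraries, and IkbkbCA had 1692, against 2846 with the 3 sets. With total-count scaling the higher share of called genes went from 71.2% to 56.6% for the difference between IkbkbCA and Ikbkb-/- and from 54.8% to 44.1% for that between tau fibrils and PS19. No paired analysis was possible because the labels give no replicate number or litter that groups share, and the 3 marker sets of the IkbkbCA and IkbkbWT libraries, read from the data, were used as a covariate instead. With 4 or 5 libraries a group, low counts limit Il1a, Casp4 and Il1rap in the tau experiment.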

Other observations

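The balance of the 2 inflammatory caspases differed between adult and cultured microglia. Casp4 counts exceeded Casp1 counts in all 8 adult libraries, with a ratio of 1.69 to 5.94 in PS19 and 1.97 to 4.54 in NTG. In the cultures the ratio was at most 0.786 (Ikbkb+/+), and it was 0.0588 to 0.361 with vehicle, 0.304 to 0.353 with tau fibrils, 0.328 to 0.417 in IkbkbWT and 0.439 to 0.550 in IkbkbCA, where the last 2 did not overlap. The Il1a to Il1b ratio was likewise highest in the adult cells, 0.479 to 0.71 in PS19 and 0.561 to 1.09 in NTG, and lowest with tau fibrils, 0.0132 to 0.0209. Granulocyte markers summed to 398 to 2430 CPM in the adult libraries and to at most 426 CPM in the cultures, and their part in these ratios was not tested.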
